A study of Mus musculus with 11 samples.

Results

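Aminoacyl-tRNA synthetases are the enzymes that load each amino acid onto its transfer RNA before translation. All 36 genes of the list, 20 for cytosolic and 16 for mitochondrial enzymes, were found among the 37583 gene IDs of the count tables by their mouse symbols, with Mars1 matched under its older symbol Mars. The RNA came from 11 clones of mouse granulocyte-monocyte progenitors, 5 labelled as a Taz knockout (KO) and 6 as wild type (WT), all of C57BL/6 strain and derived from fetal liver at embryonic day 15.5. Taz encodes tafazzin, which remodels the mitochondrial lipid cardiolipin. Every line, KO and WT alike, carries the retroviral ER-Hoxb8 construct, an estrogen-dependent form of Hoxb8 that blocks differentiation, and each was grown from a single cell in 0.5 uM beta-estradiol and about 50 ng/ml stem cell factor, so both genotypes are immortalised progenitors and not primary cells. Clone titles carry a number (3 or 4 for KO, 1 or 2 for WT) and a letter. The sources used here do not say what a number stands for, or whether clones that share it came from the same culture. The p-values therefore reflect variation among these clones alone, which may be partly technical.

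Most synthetases recognise a single amino acid and the matching transfer RNAs. Mammals use separate nuclear genes for most cytosolic and mitochondrial enzymes, while Gars and Kars each encode both forms, and mitochondria obtain glutaminyl-tRNA by a route that needs no separate glutaminyl enzyme. When cells lack amino acids, or when mitochondria or the endoplasmic reticulum are disturbed, phosphorylated eIF2alpha lets cells make more ATF4, a transcription factor whose known targets in mammalian cells include amino acid transporters, amino acid synthesis enzymes and many cytosolic synthetases. ATF4 binds, with C/EBP partners, a composite sequence called the C/EBP-ATF response element (CARE).

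Gene counts totalled 19778119 to 23658158 per KO library and 21966954 to 27431544 per WT library. Every synthetase had at least 307 reads in every library, and all 36 passed the filter on low counts. Values are given as CPM, the usual depth-scaled counts, on library sizes scaled by TMM factors. Taz itself averaged 3.23 ± 0.685 CPM in KO clones and 39.1 ± 2.54 CPM in WT clones (SD, n = 5 and 6), without overlap. The progenitor markers Mpo, Elane, Prtn3, Ctsg, Ms4a3, Kit, Cd34 and Fcgr3 were present in all clones, at a summed 11680 to 19670 CPM in KO and 12550 to 21960 CPM in WT clones. Markers of other cell types were also read. Summed CPM was 1134 to 1970 in KO and 807.8 to 2294 in WT clones for 7 monocyte or macrophage markers, 108.4 to 235.2 and 62.5 to 218.6 for 4 megakaryocyte markers, and 12.2 to 26.7 and 14.5 to 72.8 for 5 erythroid markers. The 5 T or NK cell markers summed to 95.6 to 200.3 CPM in KO and 44.5 to 186 CPM in WT clones, nearly all of it Nkg7 and with Cd3e at 0 in every library, and 4 hepatocyte markers stayed at or under 1.95 CPM in KO and 0.845 CPM in WT clones, with Ttr at 0. None of the markers in these 5 lists was called. A set of 10 late neutrophil markers summed to 14.96 to 142 CPM in KO clones and to 19.1 to 108 CPM in 5 WT clones, but to 1531 CPM in WT clone 2D, which stands apart in this respect. A set of 6 B cell markers, with Pax5 at 0, summed to 5.02 to 27.9 CPM in KO clones and 30.9 to 50.6 CPM in WT clones, and 1 of the 6, Cd79b, was called lower (log2 fold change -3.80 ± 0.73, SE; edgeR adjusted p = 0.017). What part these markers have in the results was not tested. Results on the synthetases are therefore given with and without WT 2D. In bulk RNA, fewer cells of a type and less RNA per cell cannot be told apart.

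Across all genes, 601 of 11900 tested genes (5.05%) were called between KO and WT clones at an adjusted p under 0.05 (edgeR's quasi-likelihood test with Benjamini-Hochberg adjustment, used for every call below). Cytosolic synthetase mRNAs were higher in KO clones for part of the family. Of the 20 cytosolic enzymes, 7 rose (Sars, Aars, Wars, Lars, Iars, Cars and Eprs) and 0 fell, against 2.76% of all tested genes called higher and 2.29% called lower. Their median log2 fold change was 0.31 against -0.01 over all tested genes, with a range from -0.12 for Qars to 0.66 for Sars. None of the 16 mitochondrial enzymes was called in either direction, and their median log2 fold change was -0.01.

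**Figure D1:**
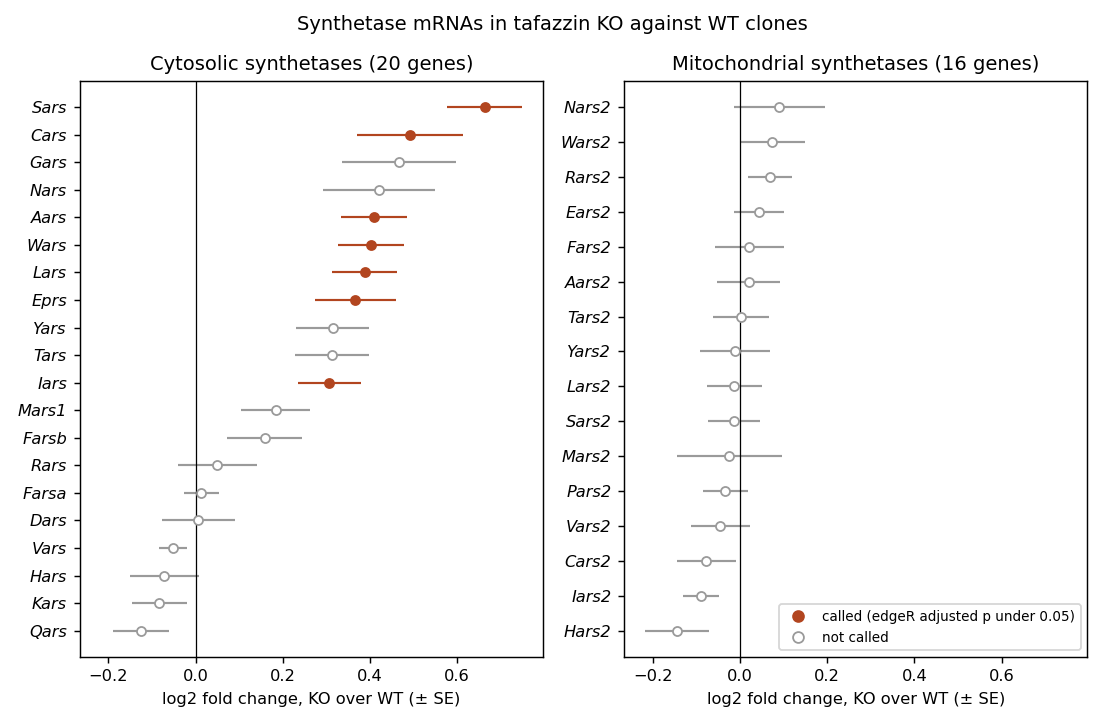
Log2 fold change of each synthetase mRNA in KO over WT clones, with standard errors as bars, for 20 cytosolic genes on the left and 16 mitochondrial genes on the right. Filled points mark the 7 genes called by edgeR, which lie between 0.31 and 0.66, while the mitochondrial genes lie between -0.14 and 0.09.

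Sars, which charges serine transfer RNAs, had the largest change of the 36. It stood at 280, 339, 277, 284 and 264 CPM in the KO clones from 3H to 4L in letter order, against 160 to 219 CPM (median 176) in WT clones. No KO clone overlapped a WT clone, KO 3I was the highest of all 11, and WT 2D was the highest WT clone. The log2 fold change was 0.66 ± 0.09 (SE; edgeR adjusted p = 0.00257), a 1.58-fold difference. Aars, the alanine enzyme, stood at 490, 530, 518, 448 and 474 CPM in KO clones in the same order, against 319 to 434 CPM (median 369) in WT clones, again without overlap. Its log2 fold change was 0.41 ± 0.08 (SE; edgeR adjusted p = 0.0145). The tryptophan enzyme Wars, also known as an interferon-induced gene, stood at 199, 219, 224, 187 and 197 CPM in KO clones, against 140 to 183 CPM (median 153) in WT clones. The lowest KO clone, 4K, lay just above the highest WT clone, 2D, and the log2 fold change was 0.40 ± 0.08 (SE; edgeR adjusted p = 0.0155). Lars, the leucine enzyme, which also takes part in leucine sensing for mTORC1, stood at 473, 509, 472, 428 and 490 CPM in KO clones, against 317 to 427 CPM (median 360) in WT clones. Here too KO 4K and WT 2D were nearest to each other, at 428.1 and 427 CPM, and the log2 fold change was 0.39 ± 0.07 (SE; edgeR adjusted p = 0.0168). Groups without overlap and higher in KO were found for these 4 members, and for 2.97% of all tested genes, while 0 members lay without overlap lower in KO, against 3.02% (5.99% in both directions).

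The other 3 called members overlapped between genotypes through WT 2D alone. Iars, the isoleucine enzyme, stood at 470, 488, 457, 432 and 469 CPM in KO clones, against 327 to 433 CPM (median 377) in WT clones (log2 fold change 0.31 ± 0.07, SE; edgeR adjusted p = 0.0354). Cars, the cysteine enzyme, was the least abundant called member, at 136, 151, 139, 122 and 143 CPM in KO clones, against 76.6 to 130.2 CPM (median 95.8) in WT clones (0.49 ± 0.12; edgeR adjusted p = 0.0437). Eprs, a bifunctional protein that charges both glutamate and proline transfer RNAs, stood at 712, 736, 719, 628 and 751 CPM in KO clones, against 468 to 685 CPM (median 535) in WT clones (0.37 ± 0.09; edgeR adjusted p = 0.0495). WT 2D had 433, 130.2 and 685 CPM of these mRNAs, above the lowest KO clone, 4K, in each case. The calls of Cars and Eprs ended when any clone but WT 2D was left out (highest edgeR adjusted p = 0.112 and 0.116). That of Iars was kept without WT 1A, 2D or 2E or without KO 4K, and ended without any of the others (highest edgeR adjusted p = 0.0932). Lars lost its call without KO 3I (adjusted p = 0.052), and Sars, Aars and Wars were called whichever single clone was left out. With counts summed per title number Sars was not called (edgeR adjusted p = 0.0675). No member was called without all clones of title number 1 or of number 4, where 45 and 32 of all genes were called. Sars alone was called without those of number 3, where 92 of all genes were called. The number of called members was 3 without KO 3I and 4 without KO 3H, KO 4J, KO 4L, WT 1B, WT 1C or WT 2F. In those fits 240 to 395 of all genes were called, against 601 with all clones.

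**Figure D2:**
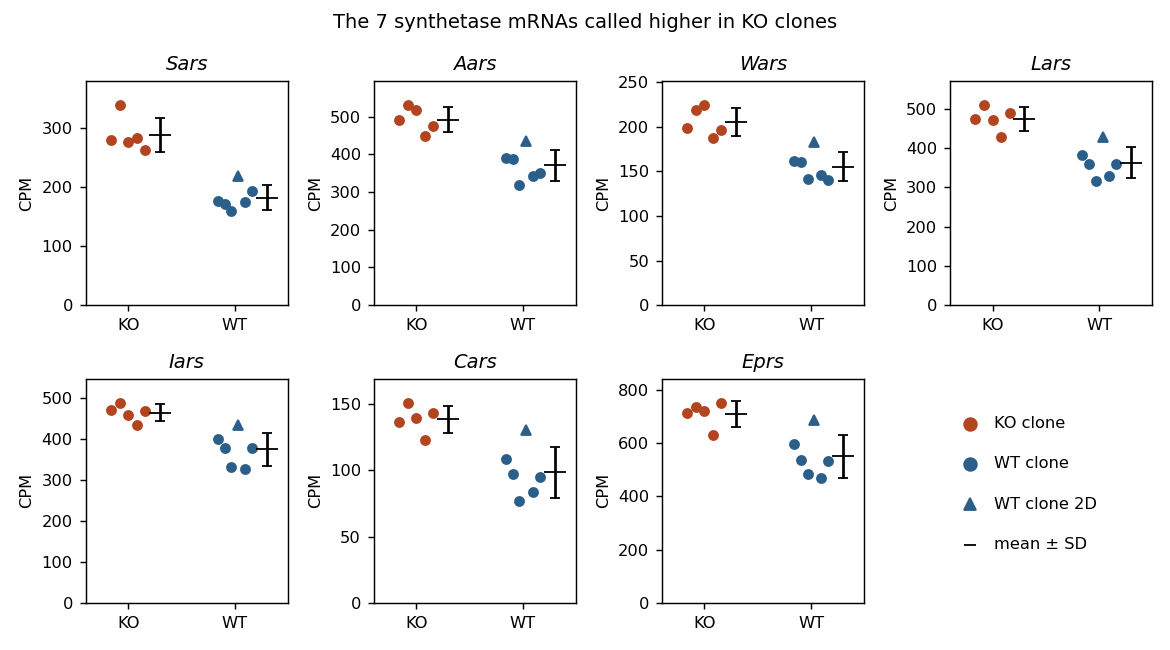
CPM of the 7 called synthetase mRNAs in each clone, KO clones left and WT clones right, with the mean and SD beside them. WT clone 2D, drawn as a triangle, is the highest WT clone for each of the 7, and in the lower row it lies above the lowest KO clone.

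All 7 called members belong to a list of 12 cytosolic synthetases that studies of mammalian cells have described among ATF4 targets (Aars, Cars, Eprs, Gars, Iars, Lars, Mars1, Nars, Sars, Tars, Wars and Yars). All 12 had a positive fold change, against 48.4% of all tested genes, and the median log2 value was 0.40. The list was drawn from general knowledge of these studies with earlier results of these data known, and its 12 genes are also the 12 cytosolic members with an unadjusted p under 0.05, so its counts are not independent evidence. Over all genes, 2417 of 11900 had an unadjusted p under 0.05. For Yars, the tyrosine enzyme, the log2 fold change was 0.31 ± 0.08 (SE; edgeR adjusted p = 0.0572), and for Tars, the threonine enzyme, 0.31 ± 0.08 (adjusted p = 0.0601). Gars, for glycine, had 0.47 ± 0.13 (adjusted p = 0.0701), and Nars, for asparagine, 0.42 ± 0.13 (adjusted p = 0.0909), both with a wide spread among WT clones. Nars, the most abundant synthetase per length over all clones, stood at 735, 704, 694, 596 and 696 CPM in KO clones and 403 to 689 CPM (median 501) in WT clones, and WT 2D lay among the KO clones. For Mars1, the methionine enzyme, it was 0.18 ± 0.08 (adjusted p = 0.222). The 3′ part of Mars1 overlaps the stress gene Ddit3 on the other strand in the GRCm38 annotation, over 1.99% of its exon bases, and strand was ignored in counting, so reads there cannot be told apart.

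The remaining 8 cytosolic enzymes gave 0 calls in either direction with edgeR, 0 at an unadjusted p under 0.05, and 0 with DESeq2 or limma-voom. Their median log2 fold change was -0.02. Farsb, the beta subunit of the phenylalanine enzyme, had a log2 fold change of 0.16 ± 0.09 (SE), while its partner in the same complex, Farsa, had 0.01 ± 0.04. Rars (arginine) had 0.05 ± 0.09 and Dars (aspartate) 0.01 ± 0.08. The 4 with a negative value were Vars (valine, -0.05 ± 0.03), Hars (histidine, -0.07 ± 0.08), Kars (lysine, -0.08 ± 0.06) and Qars (glutamine, -0.12 ± 0.06), with edgeR adjusted p from 0.311 for Qars to 0.666 for Hars. Vars was also among the least variable, at 518 to 551 CPM in KO clones and 524 to 586 CPM in WT clones. Kars stood at 360 to 403 CPM in KO clones and 366 to 460 CPM in WT clones. The difference between the 12 and the 8 was not tested as a difference between groups of genes.

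Promoters of the synthetase genes, whether called or not, were searched for the CARE core, TGATGNAA, on both strands of RefSeq windows from 250 bases before to 50 bases after each start site (build GRCm38.p6). Windows of 26 of the 36 members were used, among them 3 of the 7 called ones (Eprs, Iars and Sars). The core was present in 4 of the 12 cytosolic windows, those of Gars, Iars, Tars and Yars, and in 0 of the 14 mitochondrial ones, against 2.27% of 11389 windows of tested genes and 3.97% of all 32851 windows. These 4 are all among the 7 windows used for the 12 ATF4-described members, and 0 of the 5 other cytosolic windows held it. That list was drawn with earlier results of these data known, so this split is not independent evidence. Split by call, the core was in 1 of 3 windows of called members (Iars) and in 3 of 9 windows of cytosolic members that were not called (Gars, Tars and Yars). For comparison, 3 of the 6 stress markers described below (Atf4, Ddit3, Asns, Trib3, Chac1 and Sesn2) had a match. The cyclic AMP response element TGACGTCA and the palindromic NRF1 motif, whose factor is known for nuclear genes of mitochondrial proteins, were found in none of these 26 windows, against 3.12% and 2.19% of tested genes' windows. A match is a run of letters and not a measured binding site, and other parts of these genes were not searched.

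The matches are shown with 11 bases on each side, on the strand of the gene, with positions counted from the RefSeq start site (position 1 is its leading base). Capitals mark the core or its reverse complement. In Iars and Tars the same 8 letters, TTGCATCA, occur, and Yars has their reverse complement, TGATGCAA. Gars has TTTCATCA.
Gars, match from position -30 (chr6:55037960-55037989, plus strand): tggctgcgctaTTTCATCAtgcaccgggcg
Iars, match from position 8 (chr13:49682126-49682155, plus strand): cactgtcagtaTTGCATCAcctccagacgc
Tars, match from position -15 (chr15:11399655-11399684, minus strand): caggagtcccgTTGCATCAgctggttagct
Yars, match from position 4 (chr4:129189895-129189924, plus strand): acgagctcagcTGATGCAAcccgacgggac

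The 250 bases before the start site are shown for Gars (chr6:55037751-55038000, plus strand) and Tars (chr15:11399659-11399908, minus strand), where a match lies upstream of the start, and for Sars (chr3:108445260-108445509, minus strand), the member with the largest change, which had no match in its window. Capitals mark the same core.
Gars: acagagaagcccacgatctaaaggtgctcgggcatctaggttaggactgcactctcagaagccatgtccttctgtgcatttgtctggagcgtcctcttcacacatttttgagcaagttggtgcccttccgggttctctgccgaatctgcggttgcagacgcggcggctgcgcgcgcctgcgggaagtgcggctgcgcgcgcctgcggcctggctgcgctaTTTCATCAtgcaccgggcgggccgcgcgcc
Tars: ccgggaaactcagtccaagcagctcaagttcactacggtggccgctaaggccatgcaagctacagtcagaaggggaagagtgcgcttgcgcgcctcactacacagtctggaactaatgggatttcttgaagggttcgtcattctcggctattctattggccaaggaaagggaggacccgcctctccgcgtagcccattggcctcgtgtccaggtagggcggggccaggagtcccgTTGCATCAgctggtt
Sars: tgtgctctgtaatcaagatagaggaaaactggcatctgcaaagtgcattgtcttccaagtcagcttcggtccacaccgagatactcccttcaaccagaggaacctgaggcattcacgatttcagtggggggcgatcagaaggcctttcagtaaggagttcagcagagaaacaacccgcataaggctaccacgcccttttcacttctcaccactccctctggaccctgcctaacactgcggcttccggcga

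The enzymes that serve mitochondrial translation showed no called change. None of the 16 was called by edgeR, 0 had an unadjusted p under 0.05, and DESeq2 and limma-voom called 0. Log2 fold changes ran from -0.14 ± 0.07 (SE) for Hars2 to 0.09 ± 0.10 for Nars2, with standard errors from 0.04 to 0.12. Of the 16 values, 7 were positive and 9 negative. The smallest adjusted p was that of Iars2, the isoleucine enzyme (-0.09 ± 0.04; edgeR adjusted p = 0.25), whose exons overlap those of Rab3gap2 over 22.9% of their bases in the GRCm38 annotation. Tars2, the threonine enzyme and the most abundant mitochondrial member per length, stood at 102, 97.6, 97.4, 90.5 and 101 CPM in KO clones and 90.01 to 115 CPM (median 93.9) in WT clones. KO and WT clones overlapped for Tars2, as they did for every mitochondrial member. Hars and Hars2 lie head to head and share exon bases in that annotation (7.97% of Hars and 4.56% of Hars2), so a part of their reads cannot be assigned without strand.

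Cytosolic mRNAs were more abundant than mitochondrial ones per length. Levels per kilobase of annotated transcript, averaged over WT clones, ran from 30.5 CPM per kb for Cars to 191 for Kars among cytosolic genes (median 98.3), and from 3.09 for Mars2 to 40.7 for Tars2 among mitochondrial genes (median 11.8). In KO clones, Nars (249.5 CPM per kb), Gars (248) and Kars (180) led the cytosolic genes, and in WT clones Kars (191), Nars (187) and Gars (180) led. Neighbours in this order were often closer than the clones of 1 genotype: Nars and Gars differed by less than their SD among WT clones, 38.4 and 37.8 CPM per kb. Transcript lengths came from the GRCm38 annotation and not the build used for counting, so these levels are approximate. They also depend on the annotated length, which for Mars2 was 11294 bases, 1758 of them coding. In CPM Mars2 averaged 34.9 in WT clones, and the lowest mitochondrial mean was that of Wars2, at 15.7 CPM. Summed over the 20 cytosolic genes, KO clones held 7232 ± 326 CPM and WT clones 6119 ± 714 CPM, and summed over the 16 mitochondrial genes 870 ± 37.2 CPM and 886 ± 45.3 CPM (SD, n = 5 and 6).

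For 13 amino acids a cytosolic gene was paired with a mitochondrial one. Such a pair allows a ratio within each clone that does not depend on library scaling. Eprs, which charges transfer RNAs of both glutamate and proline, was not paired with Ears2 or Pars2, nor Farsa and Farsb with Fars2. The log2 ratio of cytosolic to mitochondrial CPM was higher in KO clones without overlap for 7 pairs (Sars/Sars2, Cars/Cars2, Iars/Iars2, Aars/Aars2, Yars/Yars2, Wars/Wars2 and Tars/Tars2), overlapped for 6, and was lower without overlap for 0. A matching share over all genes cannot be given for such pairs, and the ratios were not tested. Sars over Sars2 averaged 3.40 ± 0.20 in KO clones and 2.72 ± 0.12 in WT clones (SD of log2 ratios), a difference of 0.68. Cars over Cars2 averaged 1.94 ± 0.12 in KO clones and 1.36 ± 0.23 in WT clones, and Iars over Iars2 1.204 ± 0.06 in KO clones and 0.80 ± 0.10 in WT clones. For Vars over Vars2 the means were 3.33 ± 0.11 in KO clones and 3.34 ± 0.10 in WT clones, and for Rars over Rars2 1.92 ± 0.04 and 1.93 ± 0.12. WT 2D was the highest WT clone for 7 of the 13 pairs.

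**Figure D3:**
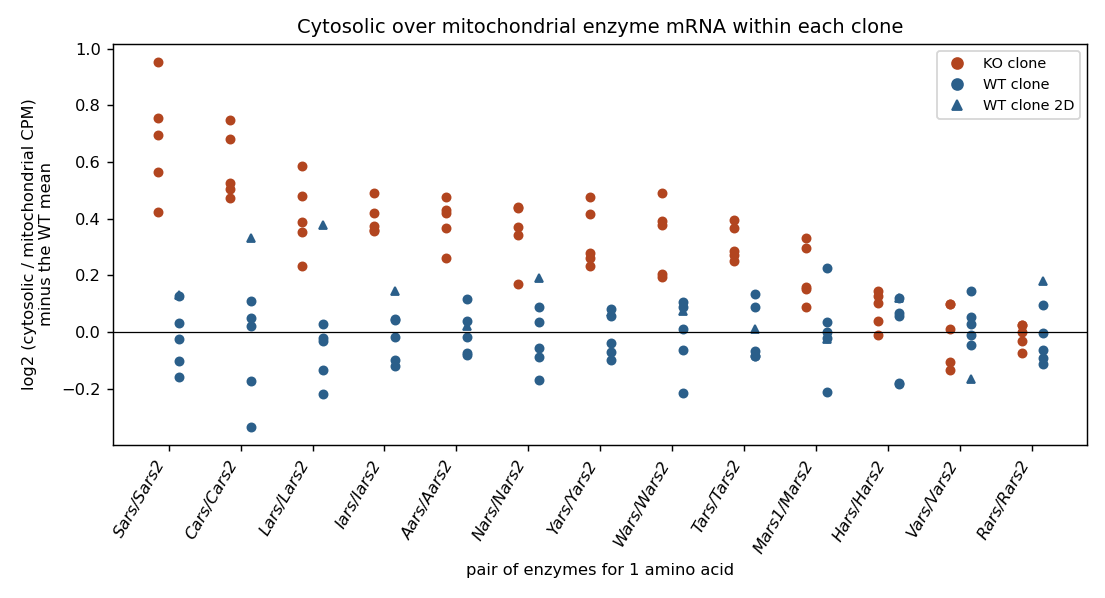
Log2 ratio of cytosolic to mitochondrial synthetase CPM in each clone for 13 amino acids, less the mean of WT clones, with KO clones left and WT clones right in each pair. KO clones lie above all WT clones for 7 pairs and overlap them for Lars, Nars, Mars1, Hars, Vars and Rars over their mitochondrial counterparts.

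Clones differed in the level of cytosolic members. Within a genotype, the coefficient of variation between clones had a median of 5.98% in KO clones and 12.5% in WT clones for cytosolic members, and of 7.19% and 8.07% for mitochondrial members. Among WT clones, 1B, 1C and 2E were low, with 1, 1 and 0 of the 20 cytosolic mRNAs above the mean of all 11 clones, and WT 2D was high, with 19 of 20. The KO clones had 17, 14, 17, 11 and 18 above it, in the same letter order. Of the 16 mitochondrial mRNAs, KO 4K had 1 above the mean and the other KO clones 9 to 11, while WT 2D and WT 1A had 13 each and the other WT clones 3 to 7. WT 2D was the highest WT clone for 18 of the 20 cytosolic members and 10 of the 16 mitochondrial ones. The same held for 3273 of the 11826 genes tested when WT 2D was left out. Its cytosolic sum, 7282 CPM, lay within the KO range of 6654 to 7451 CPM, while the other WT clones lay between 5411 and 6576 CPM, below every KO clone. WT 2D also had the highest Atf4 level of the WT clones, 595 CPM against 518 to 651 CPM in KO clones and 311 to 476 CPM in the other WT clones, beside its late neutrophil markers. The part of either in its synthetase levels was not tested.

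**Figure D4:**
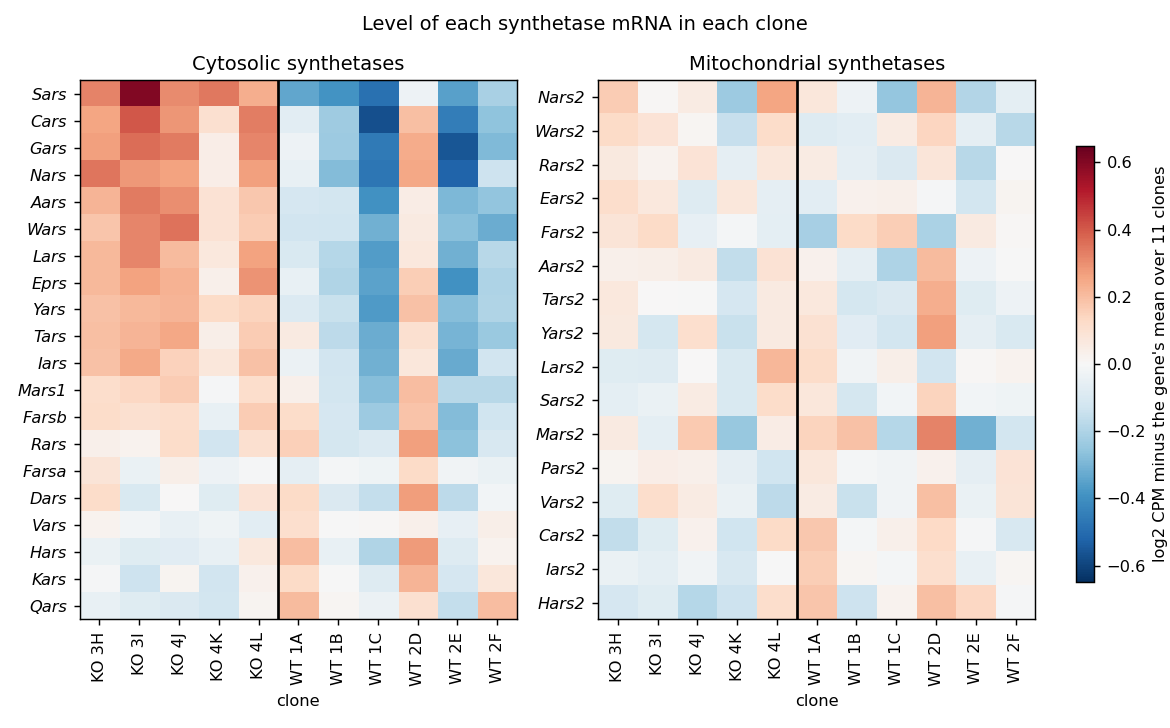
Log2 CPM of each synthetase mRNA in each clone, less that gene's mean over the 11 clones, with KO clones left of the line and WT clones right of it, cytosolic genes in the left panel and mitochondrial genes in the right one. WT 2D is coloured like the KO clones for most cytosolic genes, and WT 1C and 2E are the lowest for many.

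Without WT 2D, 12 of the 20 cytosolic enzymes rose and 0 fell, against 3.54% and 2.71% of the 11826 genes then tested (6.25% in both directions). The 12 were the whole ATF4-described list. That list was drawn with earlier results of these data known, so the match is not independent evidence. The log2 fold change was then 0.57 ± 0.10 for Gars (SE; edgeR adjusted p = 0.0103), 0.52 ± 0.10 for Nars (0.0135), 0.39 ± 0.05 for Yars (0.00297), 0.36 ± 0.07 for Tars (0.0201) and 0.25 ± 0.06 for Mars1 (0.0331). KO and WT clones did not overlap for 10 of the 12, all but Tars and Mars1, against 4.47% of all genes tested, and 0 lay lower without overlap, against 4.09%. WT 2D was the highest WT clone for all 12, against 3273 of those 11826 genes. Leaving it out therefore lowered the WT maximum for each of the 12 but for only a part of all genes, so these shares are not like for like. None of the other 8 cytosolic and none of the 16 mitochondrial members was called with edgeR in that comparison. With the late neutrophil markers as a covariate over all 11 clones, the same 12 and Farsb were called higher, while 996 of all genes were called. The marker score, a mean of log2 CPM less each gene's mean, was 5.57 in WT 2D and 1.81 in KO 4L, the next highest clone. That fit is therefore not independent of leaving out WT 2D.

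**Figure D5:**
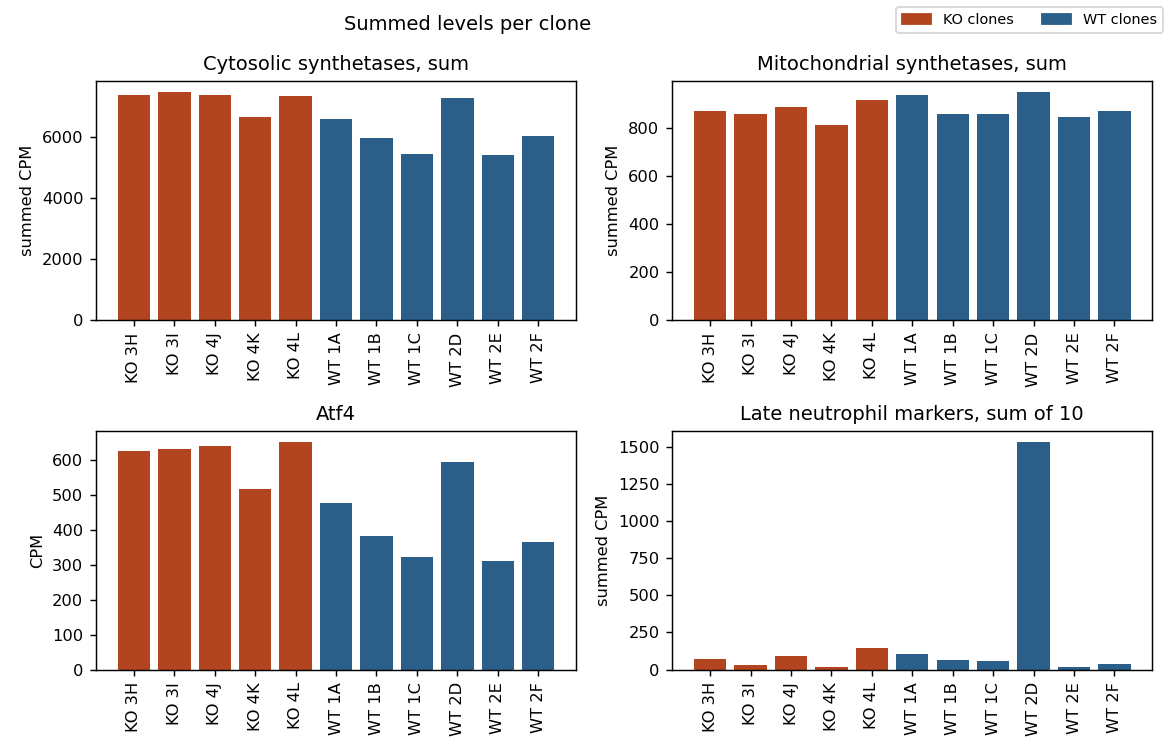
Summed CPM of 20 cytosolic and 16 mitochondrial synthetase mRNAs, CPM of Atf4 and summed CPM of 10 late neutrophil markers in each clone, KO clones left and WT clones right. The cytosolic sum of WT 2D, 7282 CPM, is within the range of the KO clones, and its late neutrophil sum of 1531 CPM is above all other clones.

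Members fall into structural groups that the list did not use. The multi-synthetase complex holds 8 of the cytosolic enzymes (Dars, Eprs, Iars, Kars, Lars, Mars1, Qars and Rars), and 3 of these 8 rose, against 4 of the 12 outside it, with median log2 fold changes of 0.12 and 0.36. Its scaffold proteins Aimp1, Aimp2 and Eef1e1 gave 0 calls with edgeR and 0 at an unadjusted p under 0.05, and Aimp1 had a log2 fold change of 0.09 ± 0.06 (SE; adjusted p = 0.379). Of the enzymes with a class I catalytic fold 4 of 9 rose, and of those with a class II fold 2 of 10, Eprs carrying both. Beside each of these counts, 2.76% of all tested genes were called higher. The groups divide the same called members, and their counts were not compared by a test.

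Between the title numbers of 1 genotype, 0 synthetases were called with edgeR, and 0 had an unadjusted p under 0.05. Over all 12633 genes of that fit 0 were called (0%), with 187 at an unadjusted p under 0.05 for number 4 against 3 in KO clones and 397 for number 2 against 1 in WT clones. The members' log2 differences ran from -0.17 to 0.13 in KO clones and from -0.07 to 0.21 in WT clones.

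Stress markers of the ATF4 pathway rose in the same comparison and place the synthetases beside larger changes. Of 6 markers, 5 rose: Ddit3 (log2 fold change 1.34 ± 0.14, SE), Sesn2 (1.49 ± 0.18), Trib3 (2.97 ± 0.57), Asns (1.04 ± 0.23) and Chac1 (1.86 ± 0.42), with edgeR adjusted p from 0.00117 to 0.0335. Atf4 mRNA had 0.59 ± 0.16 (adjusted p = 0.0621). The largest synthetase change, 0.66 for Sars, was smaller than that of any of these 5.

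Most other genes of translation and transfer RNA metabolism were not called, which holds for all tested genes as well. Of all tested genes 2.76% were called higher and 2.29% lower, and the lists below differed in their share of calls. Of 6 elongation factor genes 3 rose: Eef1a1, which delivers charged transfer RNA to the ribosome, at 3450 ± 102 CPM in KO and 2937 ± 171 CPM in WT clones (log2 fold change 0.23 ± 0.04, SE; edgeR adjusted p = 0.0142), its exchange factor subunit Eef1b2 (0.14 ± 0.03) and the translocase Eef2 (0.24 ± 0.05). Of the 6 elongation factor genes 0 fell, while 4 had a positive and 2 a negative fold change. Without overlap of clones, 2 of them lay higher and 1 lower in KO, against 2.97% and 3.02% of all tested genes. Of 21 initiation genes 3 rose and 0 fell. Eif4ebp1, an inhibitor of cap-dependent initiation and a known ATF4 target, had 148 ± 12.98 CPM in KO and 100.5 ± 16.6 CPM in WT clones (0.56 ± 0.11; adjusted p = 0.0176), and Eif3c (0.28 ± 0.06) and Eif1 (0.24 ± 0.05) also rose. Of 22 tested genes of transfer RNA maturation and export 0 rose and 1 fell, the RNA kinase Clp1 (-0.24 ± 0.05; adjusted p = 0.0266). Of 27 modification genes 2 rose. They were Qtrt2, a subunit of the enzyme that inserts the base queuine (0.31 ± 0.04, edgeR adjusted p = 0.00268), and the methyltransferase Trmt1 (0.16 ± 0.04, edgeR adjusted p = 0.044). Of 8 genes of editing and selenocysteine transfer RNA 1 fell, Prorsd1 (-0.21 ± 0.05; adjusted p = 0.0495). Of 21 mitochondrial translation factors and charging partners 0 were called with edgeR, with 2 at an unadjusted p under 0.05, and the median log2 fold change was 0.00. Lrpprc, the most abundant of these and a binder of mitochondrial mRNA, had 254 ± 15.4 CPM in KO and 238 ± 19.5 CPM in WT clones (0.09 ± 0.06; adjusted p = 0.44).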

How the data were processed

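Total RNA of each clone was polyA-selected and made into strand-specific libraries, as the labels' protocols say. Raw counts were deposited by the authors as reads per Ensembl gene, 1 table for each clone and without normalisation. The submitters' processing notes name STAR, HTSeq, edgeR and the build mm9, with no tool version, while an annotation release was not found in these sources. The deposited tables' names mark them as counted without regard to strand, and multi-mapping reads were not added to genes (82.6 to 87.6 such alignment records per 100 gene counts), so genes with near-identical copies are uncertain. Rows that name no gene (reads in no gene, 5.41% to 6.94%, and ambiguous reads, 2.70% to 2.93%, of gene counts and these 2 rows together) entered neither library sizes nor tests. Libraries of 1 genotype all differed by more than sampling noise (the lowest chi-square per gene was 15.2).

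The genotypes were compared by edgeR's quasi-likelihood test with robust estimation (TMM, filterByExpr, Benjamini-Hochberg over 11900 genes), and the standard error (SE) was derived from the log2 fold change and the F statistic. Log2 CPM used a prior count of 2. Title numbers within a genotype were compared in a model of 4 means. The tests were tried on simulated data with known changes, whose outcome is not given here and is not used as evidence. Of the gene IDs, 32860 (87.4%, with 99.6% of the counts) have a symbol in GENCODE M21 (GRCm38), which was used for names, lengths and overlaps only. Promoters are from RefSeq (GRCm38.p6). The Aars promoter is not reported here. All 36 members may be named, with full values for called members and for the most abundant per length in each compartment. From each other list up to 4 called genes of smallest adjusted p are named, and the most abundant one where none was called. Aimp1, Lrpprc and the stress markers follow this rule. The members, lists and alternatives were chosen with earlier results of these data known. Alternatives were other normalisations (RLE, upper quartile), filters, limma-voom, DESeq2, an edgeR fit without robust estimation, the title number used as a random block, for sums or for means, the late neutrophil score, and leaving out each clone or title number. Statistics used edgeR 4.0.16, DESeq2 1.42.0 and limma 3.58.1 in R 4.3.3, and figures used matplotlib 3.10.9 with numpy 2.4.6 in Python 3.11.15.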

Additional observations from a re-analysis of the deposited data

Results flagged for a closer look

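In 4 of 72 sets of clones (36 members in each genotype), 1 clone stood apart from its group by a Dixon test at the 95% level, which chance alone would give in about 1 in 20 sets. Sars was at 339 CPM in KO 3I, against 284 CPM in the next KO clone. Hars was at 167 CPM in KO 4L, against 154 CPM in the next KO clone. Aars2 was at 27.3 CPM in KO 4K, against 31.2 CPM in the next lowest KO clone. Farsa was at 284 CPM in WT 2D, against 259 CPM in the next WT clone.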

How the results depend on the processing

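Of the cytosolic synthetases, 7 rose and 0 fell in the reported comparison, in which 601 of all genes were called. The numbers of cytosolic members and of all genes called were 4 and 329 with no filter, 11 and 1261 with DESeq2, 12 and 1983 with the title number as a random block (whose estimated correlation was -0.215, so that the block narrowed the errors), 4 and 307 with means of title numbers, and 13 and 996 when the late neutrophil score was a covariate. With counts summed per title number 197 of all genes and 7 cytosolic members were called, 5 of them shared with the reported 7, while Sars and Iars were not called (edgeR adjusted p = 0.0675 and 0.0531). Leaving out 1 clone gave 3 to 12 cytosolic members and 240 to 739 genes. Leaving out all clones of title number 1, 2, 3 or 4 gave 0, 6, 1 and 0 cytosolic members and 45, 296, 92 and 32 genes, with fewer clones per group. The cause of the other shifts was not tested. The median log2 fold change of cytosolic members stayed between 0.27 and 0.37 and that of mitochondrial members between -0.04 and 0.03 over 26 alternatives. No mitochondrial member was called and no cytosolic member was called lower in any of these 26. In 1 of them, the late neutrophil covariate, a member outside the ATF4-described list (Farsb) was called. No paired analysis was possible because KO and WT clones share no title number. For cytosolic members, with at least 1684 reads in each library, counting errors are smaller than the spread between clones. Mitochondrial members had as few as 307 reads. Pars2, with 331 to 498 reads, had a coefficient of variation of 3.99% in WT and 4.98% in KO clones. This is near what counting alone would give at such depths. The share of counting error in each member's spread was not tested.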
